A study of Mus musculus with 23 samples.

Results

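The nuclear genes for the subunits of the oxidative phosphorylation machinery were examined in the tibialis anterior of the mouse, a mostly fast-twitch leg muscle, after injections of the sympathetic nerve toxin 6-OHDA. Members were the protein-coding genes of the deposited table whose GENCODE symbol begins with Nduf, Uqcr, Cox4 to Cox8 or Atp5, together with Sdha, Sdhb, Sdhc, Sdhd, Cyc1 and Cycs. This gave 93 of the 14500 genes in the table. Complex I had 36 members, complex II 4, complex III 9, complex IV 18, ATP synthase 17 and cytochrome c 1, and the Nduf prefix also brought in 8 assembly factors of complex I. Of the 96 annotated protein-coding genes that fit the rule, a second Atp5o gene, Cox7b2 and Cox8c were not analysed here. A gene was tested if it had at least 1 FPKM (fragments per kilobase of transcript, scaled to library size) in at least 2 libraries, which 92 members and 12820 genes did. Cox6b2, the testis form of a complex IV subunit, fell below this filter, with a median of 0.362 FPKM in wild-type 6-OHDA muscle and 0.281 FPKM in wild-type sham muscle.

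Whole-muscle RNA came from female C57BL/6 mice fed ad libitum, in 23 libraries and 8 groups. RE-RE mice, homozygous for Bmal1(stopFL/stopFL) and carrying Syt10-Cre(-/tg) as well as Hsa-Cre(-/tg), gave 2 libraries each of 6-OHDA muscle at ZT12 and ZT0 (12 to 18 weeks old) and of sham muscle at ZT12 and ZT0 (10 to 11 weeks old). Wild-type mice gave 4 libraries each of 6-OHDA muscle at ZT12 and ZT0 (12 to 16 weeks old), with 3 libraries of sham muscle at ZT12 and 4 at ZT0 (12 to 18 weeks old). ZT is zeitgeber time, hours after lights on. In RE-RE mice the clock gene Bmal1 (Arntl) is blocked by a stop cassette, which Cre removes in muscle fibres (Hsa-Cre) and in neurons that include those of the central clock (Syt10-Cre), and cells without a Cre keep the block. Treated muscles had repeated intramuscular injections of 50 mg/kg 6-OHDA followed by recovery, whereas sham muscles had no injection. The toxin, its vehicle and the needle therefore cannot be told apart. Comparisons of treatment, time and genotype reuse the same libraries, and the labels do not say how same-numbered mice are related. In RE-RE muscle Arntl averaged 3.17 FPKM at ZT12 and 9.24 FPKM at ZT0 with 6-OHDA, and 3.45 and 12.7 FPKM in sham muscle. In wild-type muscle it averaged 1.48 and 9.84 FPKM with 6-OHDA, and 2.03 and 14.2 FPKM in sham muscle, in the same order.

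Oxidative phosphorylation passes electrons from NADH (complex I) and succinate (complex II) through complex III and cytochrome c to oxygen at complex IV, and the proton gradient that results drives ATP synthase. Complexes I, III and IV combine a small catalytic core, encoded partly by the mitochondrial genome, with many short nuclear-encoded accessory subunits. ATP synthase also mixes subunits of both genomes, its catalytic ones being nuclear-encoded, whereas complex II is wholly nuclear-encoded. Several complex IV subunits exist as alternative genes, of which one form is characteristic of heart and skeletal muscle and the other is more widely expressed.

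Read numbers recovered from the spacing of low FPKM values came to 21.1 M to 36.1 M reads per library, and 86.4% to 94.6% of the low values were whole reads within 0.1 read. Recovered reads divided by the total implied by the FPKM unit averaged 0.982 ± 0.0887 in wild-type 6-OHDA muscle (SD, n = 8) and 1.24 ± 0.0543 in wild-type sham muscle (SD, n = 7). That difference had an exact permutation p of 0.000408, two-sided, the smallest this design can give, so each fold change below depends on how libraries are put on one scale. Transcripts of the mitochondrial genome took 11.4% ± 2.99 of reads in wild-type 6-OHDA muscle and 18.3% ± 2.21 in wild-type sham muscle (exact permutation p = 0.000816). RE-RE libraries scattered more. The median residual SD of the members was 0.53 log2 units in RE-RE and 0.25 log2 units in wild-type groups, larger in RE-RE for 98.9% of the members, and a spread pooled over groups makes p-values too small for RE-RE and too large for wild-type muscle. RE-RE sham libraries 1 and 3 stood above their group, with member medians of 0.33 and 0.55 log2 units over the wild-type sham mean, against -0.20 and -0.17 log2 units in sham libraries 2 and 4. RE-RE 6-OHDA library 2 was the one 6-OHDA library whose muscle fibre genes lay above the wild-type sham mean, at 0.17 log2 units.

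Most members were abundant. In wild-type sham muscle 59 of 93 had a median above 100 FPKM and 7 were below 10 FPKM, with a median over members of 146 FPKM. Ndufa4, now assigned to complex IV despite its name, and Cox6a2, the muscle form of a complex IV subunit, led with medians of 1002 and 1001 FPKM, levels that cannot be ordered given their spread. Atp5a1 and Atp5b, the catalytic-head subunits of ATP synthase, followed at 746 and 740 FPKM. Cox4i2, Ndufb2 and Ndufa4l2 were lowest among the tested members at 2.92, 3.03 and 7.71 FPKM. Many of these genes have processed pseudogenes, and how reads shared with them were counted is not given in the sources used here.

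In wild-type muscle, 6-OHDA injection went with lower values of many short accessory subunits, while complex II, the complex III core and the alpha and beta subunits of ATP synthase did not pass the test, all on the deposited scale. By limma on the deposited log2 FPKM, averaged over both times, 52 of 92 members fell and 1 rose at an adjusted p under 0.05. Across all 12820 genes 15.9% were called lower and 18.8% higher. The median member difference was -0.47 log2 units against -0.04 for all genes tested, and 88 of 92 members were negative. The count was not stable to single libraries. It was 26 without 6-OHDA ZT0 library 1, 26 without 6-OHDA ZT12 library 6, 30 without sham ZT12 library 5, 31 without sham ZT12 library 6, 31 without sham ZT0 library 3 and 35 without sham ZT12 library 7, all of them falls. Calls over all genes fell as well, to 1988 higher and 1346 lower without 6-OHDA ZT0 library 1. Fewer muscle fibres and less RNA per fibre cannot be told apart in whole muscle. Values of other cell types moved with treatment as well. The 10 fast muscle fibre genes summed to 41183 to 61653 FPKM in wild-type 6-OHDA muscle and 67806 to 84163 FPKM in wild-type sham muscle, and 6 of 10 fell. The 11 macrophage genes summed to 152 to 535 FPKM against 26.5 to 70.7 FPKM, with 9 of the 10 tested rising, and the 8 fibroblast and matrix genes all rose. Regenerating fibre genes summed to 46.0 to 177 FPKM against 29.3 to 45.1 FPKM. The part of these changes in the members' values was not tested.

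**Figure D1:**
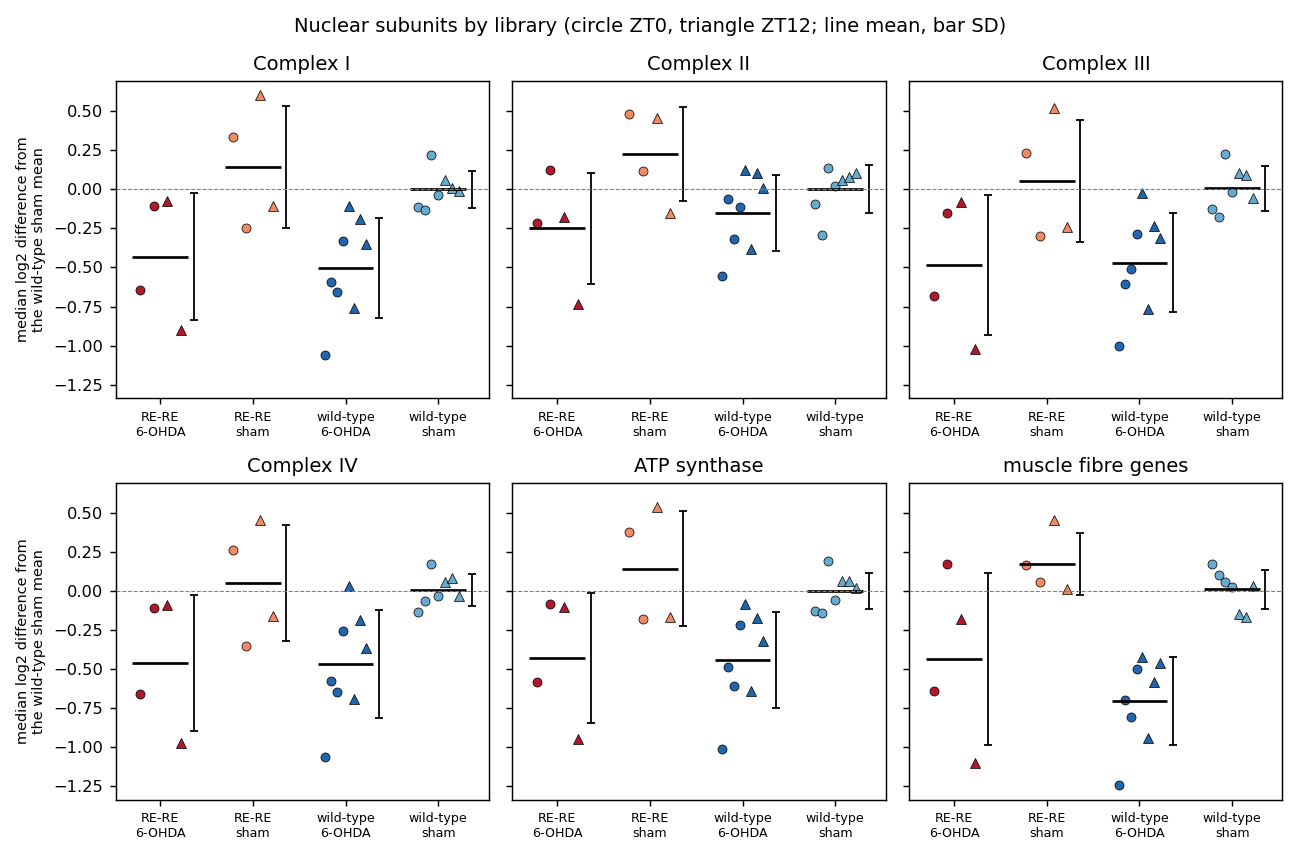
Median log2 difference of each complex's members from the wild-type sham mean, 1 point per library, for RE-RE 6-OHDA, RE-RE sham, wild-type 6-OHDA and wild-type sham muscle, with group mean and SD; the last panel shows 10 muscle fibre genes. On the deposited scale the median over all members in wild-type 6-OHDA libraries runs from -1.003 to -0.08 and in wild-type sham libraries from -0.14 to 0.20, while the muscle fibre genes run from -1.24 to -0.42 and from -0.17 to 0.17; the members' median difference is 0.19, positive, when libraries are centred on those genes.

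The size of the shift, and under 1 scaling its sign, changed with how libraries were scaled. The members' median was -0.52 log2 units after centring each library on its median (55 lower, 0 higher), -0.21 after quantile normalization (29 lower, 5 higher), -0.18 scaled to the summed FPKM of nuclear protein-coding genes (19 lower, 7 higher) and -0.13 with totals of recovered reads (15 lower, 9 higher). Centring on the muscle fibre genes turned it to 0.19, with 29 members higher and 0 lower. The median of all genes moved along with it, being -0.04 as deposited, 0.24 with the nuclear coding total, 0.29 with recovered totals and 0.61 against fibre genes. Of all 12820 genes, 2660 were called lower and 2188 higher after median centring, and 2478 and 2223 after quantile normalization. With the nuclear coding total 565 were lower and 4434 higher. Relative to the median gene, the members were lower by 0.42 log2 units as deposited. Median centring, both totals and fibre-gene centring move members and all genes alike in a library, so they nearly keep that gap by construction. Quantile normalization can change it, and there the gap was 0.13. As a share of recovered reads the members held 2.83% ± 0.327 in wild-type 6-OHDA muscle (SD, n = 8) and 2.83% ± 0.194 in wild-type sham muscle (SD, n = 7; exact permutation p = 0.893). Those reads include the mitochondrial genome's, 11.4% and 18.3% of reads in these groups, so the total differed in make-up. The members' share of the remaining reads was not tested. Under 5 scalings (as deposited, median centring, quantile, nuclear coding total and recovered totals) 15 members were lower each time, and their names, chosen after the values were seen, are Ndufa1, Ndufa2, Ndufa3, Ndufa5, Ndufa6, Ndufa7, Ndufa12, Ndufa13, Ndufb2, Ndufb4, Ndufs6, Ndufs7, Uqcr11, Cox6c and Atp5e. Of these, 12 belong to complex I, and no member was higher under all 5. How many of all genes were lower under all 5 was not counted.

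**Figure D2:**
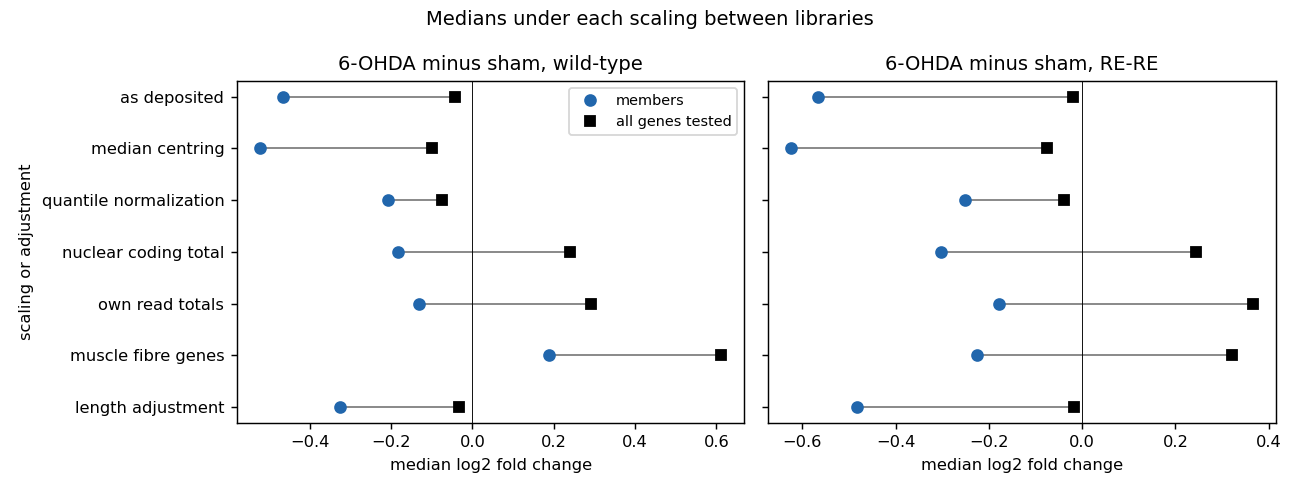
Median log2 fold change of the 92 members (circles) and of all 12820 genes tested (squares), 6-OHDA minus sham, for wild-type (left) and RE-RE muscle (right) under each scaling or adjustment. The members lie left of the genes at large in each row. A scaling factor common to a library leaves that gap nearly unchanged by construction. The members' own median in wild-type muscle runs from -0.52 to 0.19 and is positive when libraries are centred on 10 muscle fibre genes.

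Complex I had 25 of its 36 members lower and none higher on the deposited scale, with a median of -0.53 log2 units and a range from -0.83 to -0.17. Accessory subunits held 21 of these 25 calls among 29 members (median -0.53). The 7 core subunits, which carry the flavin and iron-sulfur clusters, had 4 calls and a median of -0.43, and the calls of Ndufs8 and Ndufv2 were lost in 11 and 9 of the 15 fits that left out 1 library. Ndufb4, an accessory subunit of the membrane arm, fell furthest. It had 32.0 to 65.0 FPKM in wild-type 6-OHDA libraries (median 48.7) and 69.5 to 112 FPKM in wild-type sham libraries (median 83.9), with no overlap, a difference of -0.83 ± 0.21 log2 units (SE; limma adjusted p = 0.0078). Ndufa5, an accessory subunit of the peripheral arm, ran from 55.4 to 123 FPKM (median 89.4) in 6-OHDA and from 124 to 180 FPKM (median 147) in sham muscle (-0.76 ± 0.21 log2 units, limma adjusted p = 0.010). The groups nearly touched, at 123.5 FPKM in the highest 6-OHDA and 123.7 FPKM in the lowest sham library. Ndufa1, a single-span accessory subunit, had 52.1 to 130 FPKM (median 85.1) against 119 to 159 FPKM (median 142), and here the groups overlapped (-0.76 ± 0.22 log2 units, limma adjusted p = 0.013). Against muscle fibre genes these 3 differences shrank to -0.17, -0.11 and -0.11 log2 units and did not pass. The core showed a wide spread. Ndufs7, which holds the cluster next to ubiquinone, fell by 0.57 ± 0.14 log2 units (limma adjusted p = 0.0051), but was 0.08 higher against fibre genes. Ndufs1, the largest core subunit, was at 35.5 to 63.4 FPKM (median 51.0) in 6-OHDA and 42.0 to 71.6 FPKM (median 61.3) in sham muscle, a difference of -0.17 ± 0.17 log2 units that did not pass (limma adjusted p = 0.45). Ndufv1, the flavin-binding subunit that takes electrons from NADH, was at -0.22 ± 0.12 log2 units and did not pass either (limma adjusted p = 0.15). Among the 8 assembly factors, Ndufaf4, Ndufaf5 and Ndufaf6 fell by 0.46 to 0.56 log2 units and the other 5 did not pass, from -0.41 to -0.02.

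**Figure D3:**
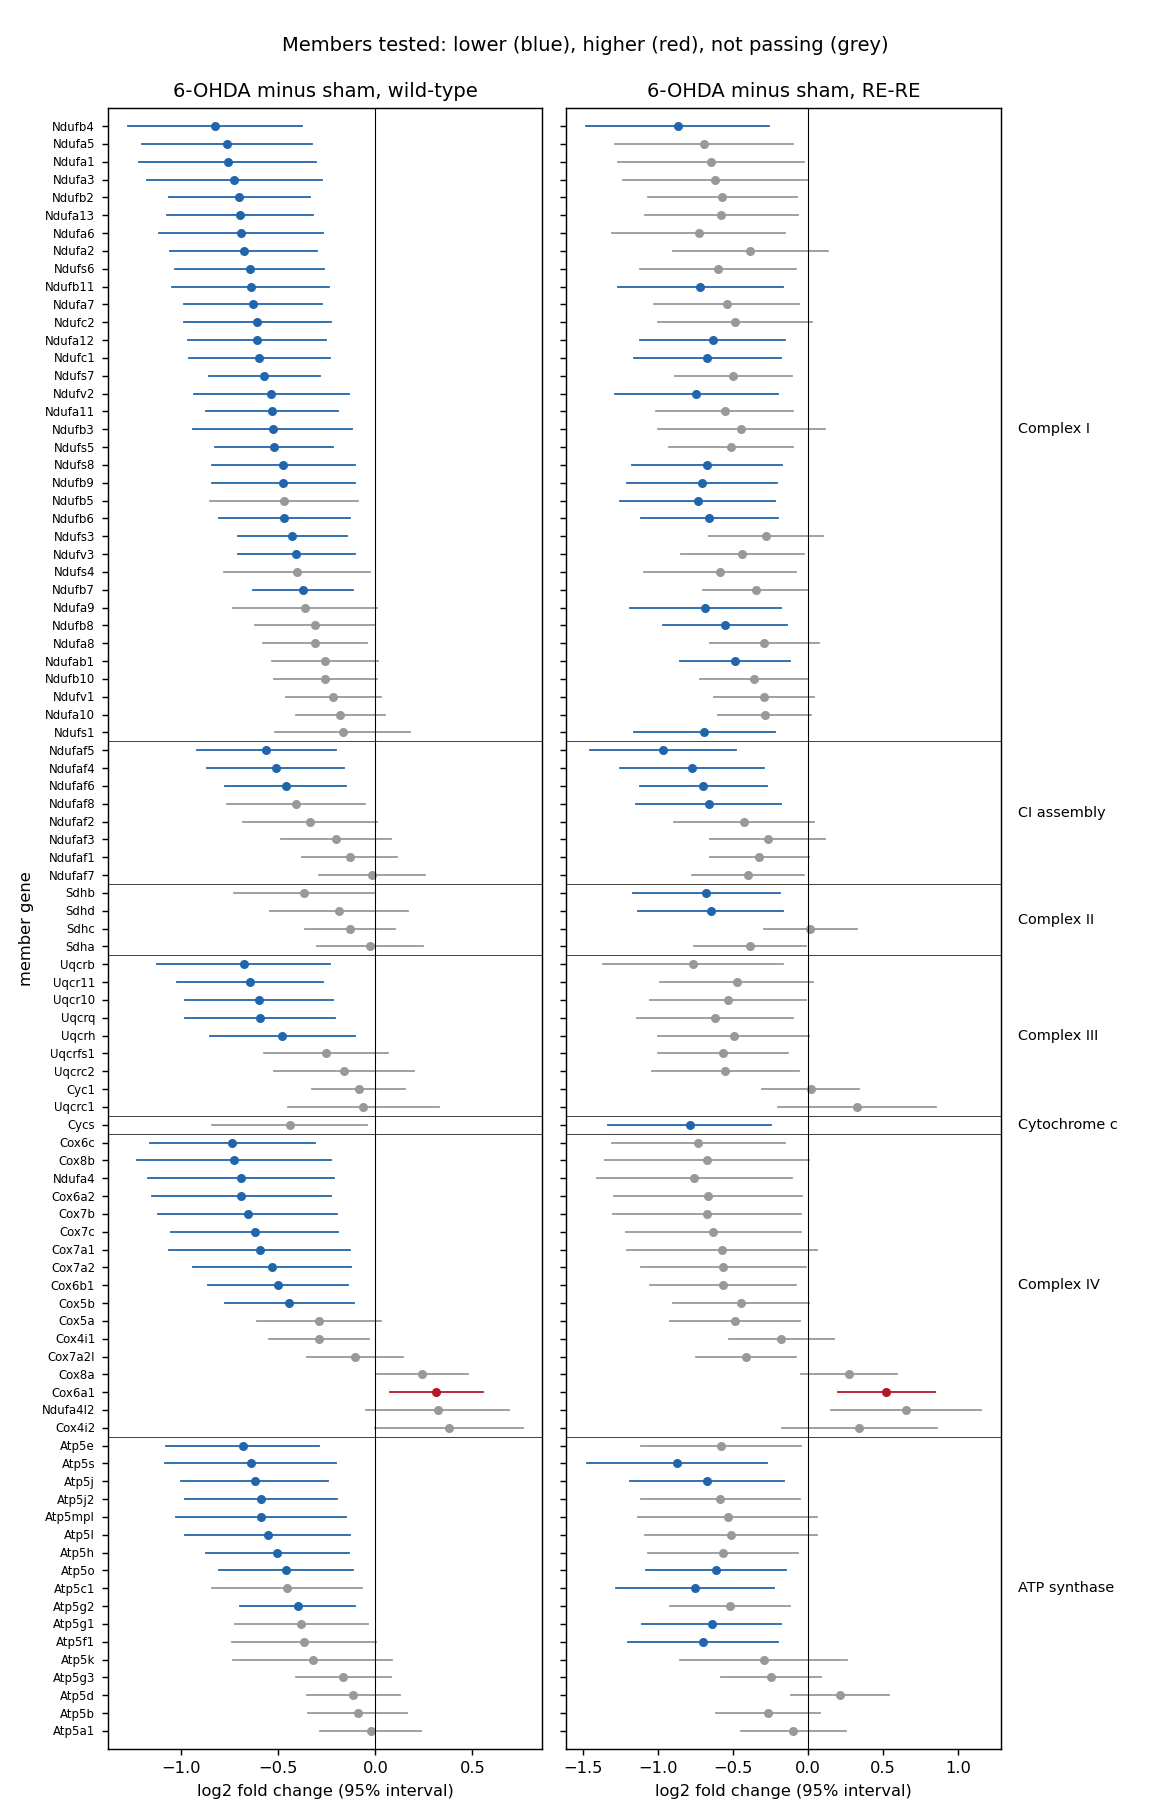
Log2 fold change, 6-OHDA minus sham, with 95% interval for 91 of the 92 tested members, grouped by complex, in wild-type (left) and RE-RE muscle (right), on the deposited scale. Blue marks a fall, red a rise and grey no call at an adjusted p under 0.05; in wild-type muscle 52 members are blue and Cox6a1 alone is red, and 29 are higher with none lower if libraries are centred on muscle fibre genes.

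Complex II and the core of complex III had no called member on the deposited scale, whereas the small subunits of complex III fell. Complex II, which also serves the citric acid cycle, had 0 of 4 called by limma (1 at an unadjusted p under 0.05), with a median of -0.16 log2 units. Sdha, its flavoprotein, had 160 to 258 FPKM (median 236) in wild-type 6-OHDA and 175 to 255 FPKM (median 239) in wild-type sham muscle, a difference of -0.03 ± 0.13 log2 units. Sdha was instead called higher under 4 other scalings: quantile (0.29), nuclear coding total (0.26), recovered totals (0.31) and fibre genes (0.63 log2 units). Sdhb, the iron-sulfur subunit, was at -0.37 ± 0.17, and the membrane anchors Sdhd and Sdhc were at -0.19 ± 0.17 and -0.13 ± 0.11 log2 units, and none passed. In complex III all 5 small accessory subunits fell, by 0.48 to 0.68 log2 units, while 0 of the 4 core subunits were called. Uqcr11, a short single-span subunit, had 81.6 to 197 FPKM (median 130) against 189 to 240.6 FPKM (median 205), overlapping, a difference of -0.65 ± 0.18 log2 units (limma adjusted p = 0.011). Uqcrc1, a core protein, was at -0.06 ± 0.19, Cyc1, which holds the haem of cytochrome c1, at -0.09 ± 0.11, and Uqcrfs1, the Rieske iron-sulfur protein, at -0.25 ± 0.15 log2 units. Cycs, the soluble electron carrier cytochrome c, had a difference of -0.44 ± 0.19 log2 units and did not pass (limma adjusted p = 0.078).

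In complex IV the muscle forms Cox6a2, Cox7a1 and Cox8b fell on the deposited scale. Of their widely expressed partners Cox7a2 fell as well, Cox6a1 rose and Cox8a did not pass. When each of the 15 libraries was left out in turn, the call was lost in 13 fits for Cox7a1, 10 for Cox7a2, 9 for Cox5b, 5 for Ndufa4, 4 for Cox8b and 3 for Cox6a2. In all, 10 of 17 tested members were lower and 1 higher. Cox6a2, the muscle form of subunit 6A, had 393 to 955 FPKM (median 614) in wild-type 6-OHDA and 811 to 1126 FPKM (median 1001) in wild-type sham muscle, with 7 of the 8 6-OHDA libraries below the lowest sham library. Its partner Cox6a1 had 35.3 to 49.2 FPKM (median 45.5) in 6-OHDA and 28.1 to 45.0 FPKM (median 36.5) in sham muscle, and the groups overlapped. The differences were -0.69 ± 0.22 log2 units for Cox6a2 and 0.31 ± 0.11 for Cox6a1 (limma adjusted p = 0.023 and 0.040). The Cox6a1 call is thin. It was lost in 13 of 15 fits that left out 1 library and under median centring (limma adjusted p = 0.079), though its sign stayed positive under each scaling. Cox8b, the muscle form of subunit 8, had 108 to 309 FPKM (median 195) against 290 to 362 FPKM (median 307), with 1 6-OHDA library inside the sham range, and fell by 0.73 ± 0.24 log2 units (limma adjusted p = 0.026). Cox8a, its widely expressed partner, had 58.5 to 70.4 FPKM (median 62.4) against 49.3 to 67.9 FPKM (median 53.1), a difference of 0.24 ± 0.11 log2 units that did not pass. Because scale drops out of a ratio of 2 genes in 1 library, the pairs were compared within libraries, and each difference is the mean of the differences at both times. A ratio does not take out a change in cell types, such as the higher macrophage and matrix genes given above. The part of that change in the ratios was not tested. The log2 ratio of Cox6a2 to Cox6a1 averaged 3.75 ± 0.54 in wild-type 6-OHDA and 4.78 ± 0.32 in wild-type sham libraries (SD, n = 8 and 7), a difference of -1.004 with -0.63 at ZT12 and -1.38 at ZT0 (exact permutation p = 0.00163, 0.00408 after Benjamini-Hochberg adjustment over 5 pairs), with 6 of 8 6-OHDA libraries below each sham library. Cox8b to Cox8a averaged 1.61 ± 0.51 and 2.57 ± 0.20, lower by 0.97 (exact permutation p = 0.00122, adjusted 0.00408), with 7 of 8 below each sham library. Cox7a1 to Cox7a2, a further pair of muscle and widely expressed forms, did not separate the groups (difference -0.06, exact permutation p = 0.591). Both its members were lower, by 0.60 and 0.53 log2 units, with the unstable calls given above.

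The pairs formed with the hypoxia-linked alternatives moved the other way. Cox4i2, an alternative subunit 4 known from lung and from hypoxic cells, had 2.56 to 4.86 FPKM (median 4.19) against 2.30 to 5.38 FPKM (median 2.92), and its ratio to Cox4i1 was higher by 0.67 (exact permutation p = 0.0049, adjusted 0.00663). Ndufa4l2, a hypoxia-induced relative of Ndufa4, had 7.33 to 12.4 FPKM (median 11.1) against 7.07 to 9.80 FPKM (median 7.71), and its ratio to Ndufa4 was higher by 1.01 (exact permutation p = 0.00531, adjusted 0.00663). Neither Cox4i2 (0.38 ± 0.18) nor Ndufa4l2 (0.32 ± 0.18 log2 units) passed on its own on the deposited scale, and Ndufa4 fell by 0.69 ± 0.23 log2 units (limma adjusted p = 0.026). Of the remaining members, Cox6c fell by 0.74 ± 0.20 log2 units, the largest fall in the complex, and Cox5b by 0.44 ± 0.16. Cox5a (-0.29 ± 0.15), Cox4i1 (-0.29 ± 0.12) and Cox7a2l, a supercomplex assembly factor (-0.10 ± 0.12 log2 units), did not pass.

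**Figure D4:**
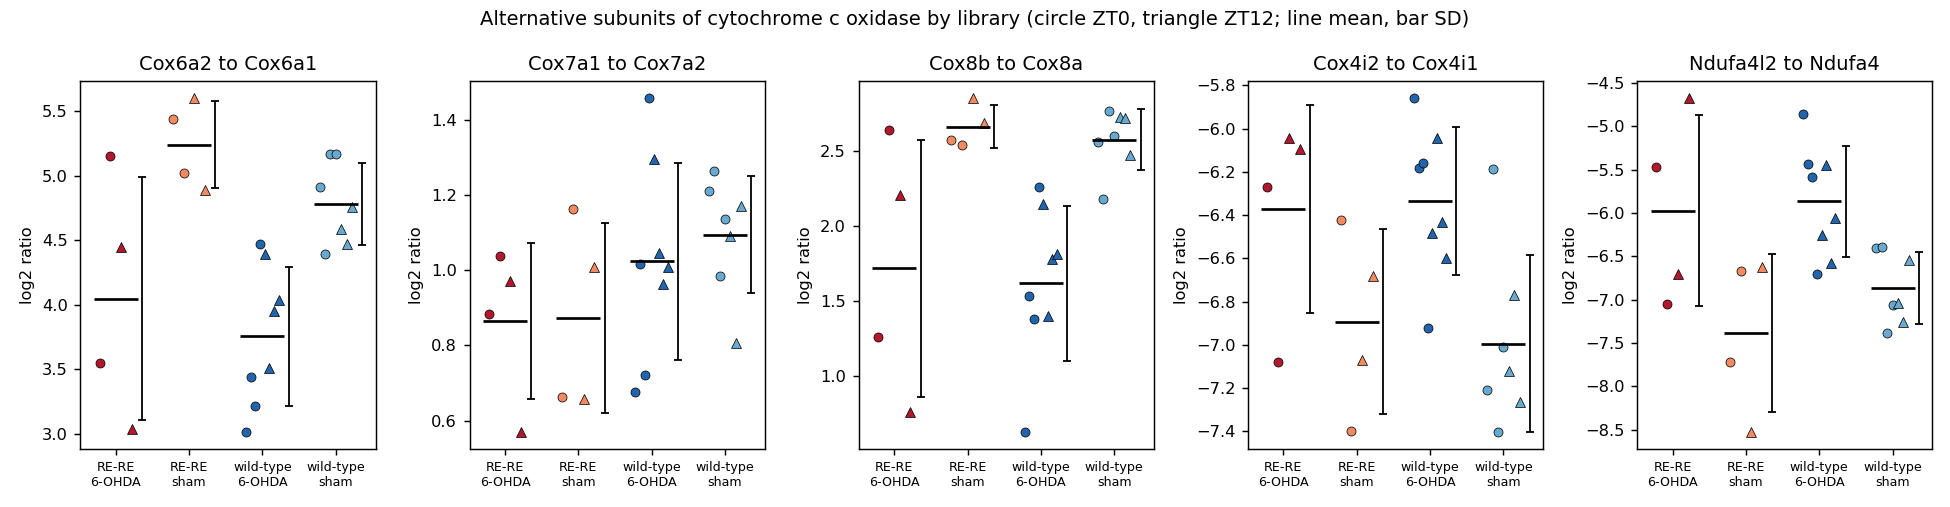
Log2 ratio of the FPKM of 2 alternative subunits in each library, by genotype and treatment, with group mean and SD. The ratios Cox6a2 to Cox6a1 and Cox8b to Cox8a are lower in wild-type 6-OHDA than in wild-type sham libraries by 1.004 and 0.97. Cox7a1 to Cox7a2 is not separated, and Cox4i2 to Cox4i1 and Ndufa4l2 to Ndufa4 are higher by 0.67 and 1.01. A scaling factor common to a library does not alter the ratios, and the part of changed cell types in them was not tested.

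Promoters are shown for Cox8b and Cox8a, because the muscle form fell and its partner did not, and for Cox6a1, the member called higher. They are the 250 bases before the start of Cox8b (chr7:140900447-140900696, minus strand), Cox8a (chr19:7217617-7217866, minus strand) and Cox6a1 (chr5:115348959-115349208, minus strand), in RefSeq GRCm38.p6, 5′ to 3′. Cox6a2 had no entry. Motifs were searched on both strands, and capitals mark a hit.
Cox8b: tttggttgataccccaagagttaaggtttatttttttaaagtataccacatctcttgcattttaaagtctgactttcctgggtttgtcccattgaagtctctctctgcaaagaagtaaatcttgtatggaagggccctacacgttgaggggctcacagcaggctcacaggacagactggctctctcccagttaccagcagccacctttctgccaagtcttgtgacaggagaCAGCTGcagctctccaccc
Cox8a: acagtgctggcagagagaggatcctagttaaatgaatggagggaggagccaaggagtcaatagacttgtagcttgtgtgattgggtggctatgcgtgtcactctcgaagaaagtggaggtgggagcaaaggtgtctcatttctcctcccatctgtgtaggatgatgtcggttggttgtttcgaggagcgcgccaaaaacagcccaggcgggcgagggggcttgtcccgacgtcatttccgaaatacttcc
Cox6a1: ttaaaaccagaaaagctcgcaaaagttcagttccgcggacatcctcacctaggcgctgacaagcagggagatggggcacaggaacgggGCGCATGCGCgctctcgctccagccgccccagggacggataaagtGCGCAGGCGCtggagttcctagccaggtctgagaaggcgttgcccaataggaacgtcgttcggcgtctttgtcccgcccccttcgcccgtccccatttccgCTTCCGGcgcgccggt
Cox8b holds 1 E-box of the form CAGCTG, 19 bases before the start, a sequence read by myogenic factors. Cox6a1 holds NRF-1 motifs, named for a regulator of respiratory genes, 162 and 117 bases before the start, and an ETS motif (CCGGAAG) 16 bases before it. Cox8a holds no hit of the motifs searched. Over the 74 members with a promoter entry, the NRF-1 motif was in 18.9% and the ETS motif in 18.9%, against 5.84% and 10.2% of 17492 protein-coding genes. The E-box was in 8.11% of members and 13.8% of all, the TATA box (TATAAA) in 6.76% and 13.7%, the ERR element (AAGGTCA) in 6.76% and 4.18%, and the YY1 motif (AAGATGGCG) in 1.35% and 0.840%. These are letter matches, not sites shown to bind.

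In ATP synthase most falls lay outside F1, the part that holds the catalytic head. On the deposited scale 9 of 17 members fell and none rose, with a median of -0.45 log2 units. Among the 5 F1 subunits 1 fell, and among the 12 others 8 did. Atp5a1, the alpha subunit, had 534 to 893 FPKM (median 748) in wild-type 6-OHDA and 584 to 809 FPKM (median 746) in wild-type sham muscle, fully overlapping, with a difference of -0.03 ± 0.12 log2 units. Atp5b, the beta subunit with the catalytic sites, was at -0.09 ± 0.12 log2 units. Neither passed as deposited, but Atp5a1 was called higher under quantile normalization (0.39), the nuclear coding total (0.26), recovered totals (0.31) and fibre genes (0.63 log2 units). Atp5e, the epsilon subunit and the F1 member that fell, had 51.5 to 121 FPKM (median 84.1) against 120 to 152 FPKM (median 130), a difference of -0.68 ± 0.19 log2 units (limma adjusted p = 0.010).

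Shorter members had the larger differences on the deposited scale. Of 53 members with a coding sequence under 500 nucleotides, 41 fell (median -0.59 log2 units), of 26 between 500 and 1000 nucleotides 9 fell (median -0.37), and of 12 between 1000 and 2000 nucleotides 2 fell (median -0.17). Other genes of the same classes had medians of -0.21, -0.06 and -0.02 log2 units, with 29.9%, 19.8% and 14.4% lower. Across members, Spearman's rho of the difference with coding length was 0.573 (n = 92) and across the other protein-coding genes 0.145 (n = 11066), both descriptions over genes that share libraries. In RE-RE muscle the rho across members was 0.134. Removing a smooth trend with exon length in each library left 40 members lower and 3 higher, with a median of -0.33 log2 units. The part of transcript length in the members' falls was not tested further.

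**Figure D5:**
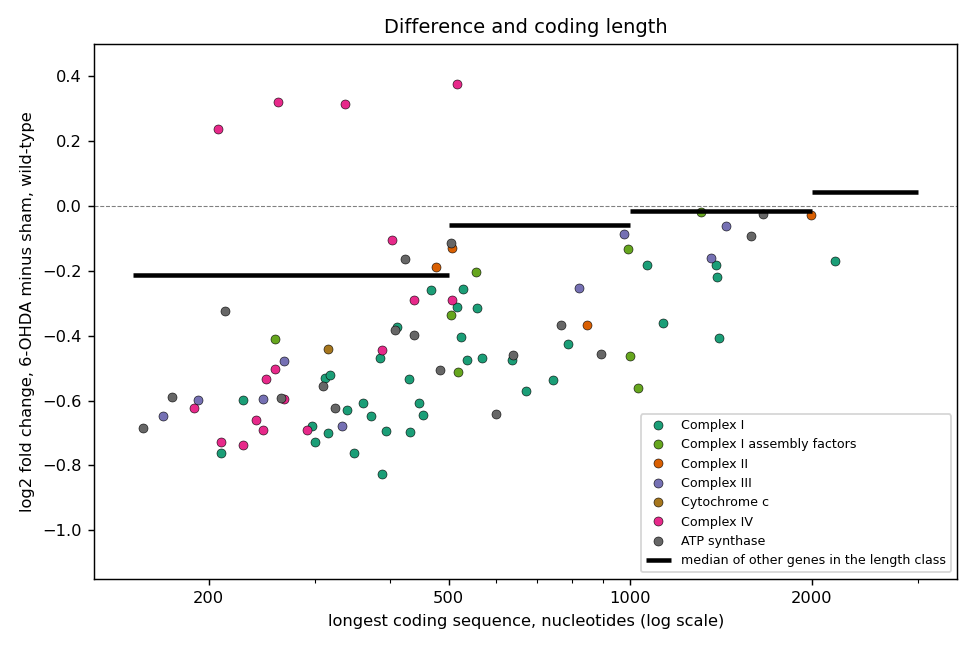
Log2 fold change of each member in wild-type muscle, 6-OHDA minus sham, on the deposited scale, against the length of its longest coding sequence (log axis), coloured by complex; black bars give the median of the other genes in each length class, and the last bar stands for all genes over 2000 nucleotides. Members under 500 nucleotides have a median of -0.59 and those from 1000 to 2000 nucleotides of -0.17; the members' overall median of -0.47 turns to 0.19 against muscle fibre genes.

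No member was called for time of day itself, and the 6-OHDA difference was called at ZT0 but not at ZT12. At ZT12 the 6-OHDA difference had a median of -0.34 log2 units with 0 members called by limma (4 at an unadjusted p under 0.05), where 0.0156% of all genes were called. Ndufb4 (-0.69 ± 0.32), Ndufa2 (-0.58 ± 0.27) and Ndufb2 (-0.54 ± 0.26 log2 units) had the smallest p there (limma adjusted p = 0.226, 0.228 and 0.242). At ZT0 it had a median of -0.58 with 31 lower and 0 higher, against 23.8% of all genes called, 10.2% lower and 13.6% higher. The largest falls at ZT0 were Cox6a2 (-0.98 ± 0.30), Ndufb4 (-0.96 ± 0.29) and Cox6c (-0.94 ± 0.27 log2 units; limma adjusted p = 0.027, 0.026 and 0.022). The ZT0 count rested on single libraries, with 0 called without 6-OHDA library 1, 1 without sham library 3, 8 without 6-OHDA library 3, 11 without sham library 4, 12 without sham library 1, 18 without 6-OHDA library 2 and 48 without 6-OHDA library 4. Over all genes 468 were called higher and 231 lower without 6-OHDA library 1, and 1798 and 1542 without 6-OHDA library 4. The difference between the times was not shown, with 0 members called and 0 at an unadjusted p under 0.05 by limma (median 0.21, 0.0078% of all genes called). Ndufaf5, Cox5b and Ndufs7 had the smallest p, at 0.54 ± 0.34, 0.47 ± 0.32 and 0.36 ± 0.27 log2 units. Between ZT12 and ZT0 itself 0 members were called by limma in any of the 4 arms, against 0.109% of all genes in RE-RE 6-OHDA (0.101% lower), 0.0546% in RE-RE sham (0.0312% higher), 0.671% in wild-type 6-OHDA and 0.647% in wild-type sham muscle. The members' medians were -0.13, 0.11, 0.28 and 0.07 log2 units in that order of arms, with 2, 0, 4 and 0 members at an unadjusted p under 0.05. These medians turned sign or moved with single libraries, from -0.59 (without ZT12 library 3) to 0.25 (without ZT12 library 4) in RE-RE 6-OHDA and from -0.21 (without ZT12 library 3) to 0.46 (without ZT12 library 4) in RE-RE sham muscle. In wild-type 6-OHDA muscle they ran from 0.15 (without ZT0 library 1) to 0.42 (without ZT12 library 6), and in wild-type sham muscle from 0.03 (without ZT0 library 2) to 0.14 (without ZT0 library 3). The smallest p belonged to Sdha (-0.71 ± 0.25), Cox7a2l (-0.49 ± 0.23) and Atp5b (-0.44 ± 0.23) in RE-RE 6-OHDA muscle and to Sdha (-0.36 ± 0.25), Ndufs1 (-0.41 ± 0.32) and Ndufb7 (0.30 ± 0.24 log2 units) in RE-RE sham muscle. In wild-type mice Ndufa8 (0.40 ± 0.17) and Cyc1 (0.35 ± 0.16) were among the 3 with the smallest p in 6-OHDA muscle. In wild-type sham muscle the smallest p belonged to Ndufaf1 (0.27 ± 0.17), Cyc1 (0.18 ± 0.17) and Cox7a2l (0.18 ± 0.17 log2 units).

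In RE-RE muscle neither the members' median 6-OHDA difference nor its calls were stable to single libraries. On the deposited scale 26 of 92 members fell and 1 rose, against 26.9% of all genes called, 15% lower and 11.9% higher, with a median of -0.57 log2 units against -0.02 for all genes. The RE-RE 6-OHDA mice were 12 to 18 weeks old and the RE-RE sham mice 10 to 11, so age and treatment cannot be told apart, and 0 members were called with age as a covariate. The median was -0.78 without 6-OHDA library 3 and -0.34 without 6-OHDA library 4, the range over left-out libraries, and -0.25 after quantile normalization. The member calls were lost without sham library 1, sham library 3, 6-OHDA library 1 or 6-OHDA library 4. They rose in number without sham library 2, sham library 4, 6-OHDA library 2 or 6-OHDA library 3. Calls over all genes fell and rose in the same fits. Each of these fits leaves 1 library in a group, so counts are not given here. Without sham 1, sham 3 and 6-OHDA 2 together, an alternative chosen after seeing the data, the median was -0.38. With only the compared libraries 0 members were called. Quantile normalization left 3 lower and 4 higher, and recovered totals 1 lower and 7 higher. After quantile normalization 1603 of all 12820 genes were lower and 1187 higher. Ndufaf5, an assembly factor known in human cells to modify NDUFS7, had 11.2, 22.96, 17.1 and 9.67 FPKM in the 4 RE-RE 6-OHDA libraries and 32.2, 25.4, 35.1 and 21.8 FPKM in the 4 RE-RE sham libraries. Only 6-OHDA library 2 lay above the lowest sham library. It fell by 0.97 ± 0.23 log2 units (limma adjusted p = 0.016) and was the member lower under all 5 scalings, though 4 of 8 single-library fits lost the call. Cox6a1 had 50.2, 33.6, 49.3 and 58.8 FPKM in RE-RE 6-OHDA and 35.0, 27.3, 34.5 and 34.8 FPKM in RE-RE sham libraries, so 3 of 4 treated libraries were above each sham library. It was 0.52 ± 0.15 log2 units higher (limma adjusted p = 0.025), under all 5 scalings, and lost the call in 4 of 8 single-library fits. Atp5s, a coupling factor of ATP synthase (-0.88 ± 0.29), and Ndufb4 (-0.87 ± 0.29) had the next largest falls (limma adjusted p = 0.034 and 0.037). By complex, 13 of 36 complex I members, 4 of 8 assembly factors and 6 of 17 ATP synthase members fell. In complex II Sdhb (-0.68 ± 0.23) and Sdhd (-0.65 ± 0.23) fell, as did Cycs (-0.79 ± 0.26 log2 units). Complex III had 0 of 9 called by limma (5 at an unadjusted p under 0.05), and complex IV 0 lower. The isoform ratios took the same signs in RE-RE as in wild-type muscle, at -1.19 for Cox6a2 to Cox6a1, -0.95 for Cox8b to Cox8a, 0.52 for Cox4i2 to Cox4i1 and 1.41 for Ndufa4l2 to Ndufa4, with exact permutation p of 0.111, 0.167, 0.222 and 0.222, where 0.0556 is the smallest this design allows.

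No member was called for genotype. RE-RE minus wild-type gave 0 called members by limma in 6-OHDA muscle (median 0.04, 0 at an unadjusted p under 0.05, 0.226% of all genes called) and in sham muscle (median 0.11, 4 at an unadjusted p under 0.05, 9.91% of all genes called, 4.74% higher and 5.17% lower). The smallest p in sham muscle were for Atp5d (-0.39 ± 0.14), Ndufaf5 (0.54 ± 0.21) and Uqcrc1 (-0.52 ± 0.22 log2 units), and in 6-OHDA muscle for Cox6a2 (0.38 ± 0.26), Atp5g3 and Atp5b. In RE-RE sham libraries 1 and 3 Uqcrc1 had 88.0 and 94.3 FPKM, against 229 and 203 in libraries 2 and 4. Atp5d had 104 and 118 against 155 and 158 FPKM, and Ndufaf5 32.2 and 35.1 against 25.4 and 21.8 FPKM. Wild-type sham libraries ran from 156 to 253 FPKM for Uqcrc1, 150 to 199 for Atp5d and 16.6 to 25.1 for Ndufaf5. Leaving out 1 library moved the median from -0.18 to 0.25 in 6-OHDA muscle (without RE-RE 6-OHDA library 3 and library 4) and from -0.05 to 0.29 in sham muscle (without RE-RE sham library 3 and library 4). In sham muscle members were called only without RE-RE sham library 4 or library 2, and a larger share of all genes was called in those fits. Each of them leaves 1 library in a group, so counts are not given here. The RE-RE sham mice were also younger, at 10 to 11 weeks against 12 to 18 weeks, and age and genotype cannot be told apart there. The 6-OHDA difference itself was not called different between genotypes for any member by limma (median of the RE-RE difference minus the wild-type one -0.05 log2 units, 0 at an unadjusted p under 0.05, 0.0702% of all genes called; the median ran from -0.28 without RE-RE 6-OHDA library 3 to 0.15 without RE-RE 6-OHDA library 4), with Ndufs1 (-0.52 ± 0.28), Ndufaf7 and Atp5d at the smallest p.

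Among other genes of the pathway in wild-type muscle, the 13 protein-coding messages of the mitochondrial genome showed the largest shift, with 12 lower, 0 higher and a median of -1.18 log2 units. Of 38 tested assembly factors outside the members 13 were lower and 2 higher (median -0.25), the 2 being Taco1, a translational activator of mt-Co1 (0.55 ± 0.12 log2 units), and Sco1, a copper chaperone of complex IV (0.27 ± 0.09). Of 20 mitochondrial import genes 7 were lower (median -0.24), among them Timm9, a small chaperone of the intermembrane space (-0.61 ± 0.13). Of 16 citric acid cycle enzymes 1, Idh3g, was lower (median -0.16). Of 16 tested regulators of mitochondrial biogenesis Ppara was higher (0.72 ± 0.24) and Tfb2m, a factor of mitochondrial transcription, lower (-0.52 ± 0.17 log2 units). All 11 glycolytic genes were tested and 5 were lower (median -0.46 log2 units). Slow fibre genes went the other way, with 6 of 7 higher and a median of 1.67 log2 units, their summed level running from 116 to 239 FPKM in 6-OHDA and from 60.6 to 148 FPKM in sham muscle. Regenerating fibre genes had 6 of 7 higher (median 1.99). Endothelial genes had 1 of 6, adipocyte genes 3 of 4, smooth muscle genes 1 of 4, and Schwann cell genes 2 of 4 higher, and 3 of 5 erythroid genes were lower. Over all 12820 genes tested, 18.8% were called higher and 15.9% lower in wild-type muscle. The endothelial and smooth muscle counts are near that share. The 1 brown adipocyte gene tested was higher. In RE-RE muscle 8 of the 13 mitochondrial messages, 8 of 16 citric acid cycle enzymes, 13 of 38 assembly factors, 7 of 20 import genes and 3 of 16 regulators were lower, with no glycolytic or muscle fibre gene called. Slow fibre genes had 6 of 7, regenerating fibre genes 5 of 7 and endothelial genes 3 of 6 higher there, and macrophage and matrix genes 0. In RE-RE muscle 11.9% of all genes tested were called higher and 15% lower. With age as a covariate 3 genes were called higher and 0 lower, and array weights left 0 called. The RE-RE list counts therefore hold for the main fit only, and the regulators' count is near the share of all genes.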

How the data were processed

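Libraries were paired-end total RNA from tibialis anterior. The deposited values are log2(FPKM + 0.01) per gene, 1 column per library; per the submitters' processing notes the authors used edgeR 3.30.0, featureCounts 1.6.2, Trim Galore 0.5.0, FastQC 0.11.8 and HISAT2 2.1.0, with GRCm38, and whether a factor between libraries entered is not stated. Symbols and lengths came from GENCODE M21, promoters from RefSeq GRCm38.p6.

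The deposited log2 values were fitted with limma 3.58.1 (R 4.3.3), 1 mean per group over all 23 libraries, lmFit, contrasts.fit and eBayes with trend, after a filter of at least 1 FPKM in at least 2 libraries. This scale is the main one. P-values were adjusted by Benjamini-Hochberg over all 12820 genes tested, threshold 0.05, and measure only the spread between these libraries. Fold changes are on the log2(FPKM + 0.01) scale. Isoform ratios and shares were compared by two-sided exact permutation within each time, 2450 arrangements in wild-type and 36 in RE-RE muscle. Reads behind the FPKM were recovered from the steps between small values, using up to 20 reads and a tolerance of 0.1. The fit was tested on simulated data. Other steps ran in scipy 1.17.1, matplotlib 3.10.9, pandas 2.3.3 and numpy 2.4.6 under Python 3.11.15.

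Named were the alternative-isoform pairs, core subunits of each complex, the 3 largest changes past the test or, failing any, the 3 smallest p, and members called against their complex. The members and gene lists were chosen with earlier results of these data known. Alternatives covered the pseudocount (1), filters, scalings, array weights, age, a replicate block, only the compared libraries and leaving out each library; recovered totals, the length adjustment, fibre-gene centring and the 3 RE-RE libraries left out together were chosen after seeing the data. Raw reads and protein sequences were not used here. The values of 1 member are not reported here by name; it is included in all counts and medians.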

Additional observations from a re-analysis of the deposited data

Results flagged for a closer look

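Of 174 groups of 4 libraries examined, 5 held a library whose gap to the nearest other exceeded Dixon's 95% critical value, where chance flags about 1 in 20. Wild-type 6-OHDA ZT0 library 4 was low for Cox6a1 (5.14 log2 FPKM, the others 5.60 to 5.62) and for Cox4i2 (1.36 log2 FPKM, the others 2.07 to 2.20). Wild-type sham ZT0 library 4 was low for Atp5d (7.23 log2 FPKM, the others 7.41 to 7.43) and for Cox4i1 (8.42 log2 FPKM, the others 8.61 to 8.64). Wild-type sham ZT0 library 3 was high for Ndufs3 (6.99 log2 FPKM, the others 6.61 to 6.67).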

How the results depend on the processing

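For 6-OHDA minus sham in wild-type muscle, 53 members were called as deposited. The total was 34 after quantile normalization, 26 with the nuclear coding total and 24 with recovered totals, and centring on muscle fibre genes reversed it to 29, all higher. Left-out libraries gave 26 to 57. At ZT0 31 became 14 with the nuclear coding total, 15 with recovered totals, 75 with array weights, 54 with only the compared libraries and 29, reversed to higher, against fibre genes, and left-out libraries gave 0 to 48. At ZT12 0 became 42 with array weights and 13 with only the compared libraries. Array weights called 2592 of all 12820 genes higher and 2297 lower at ZT12, and 2939 and 3253 at ZT0. In RE-RE muscle 27 became 9 with the nuclear coding total, 0 with array weights, age or only the compared libraries, 5 without the 3 libraries that stood apart, and, with more higher than lower, 7 after quantile normalization, 8 with recovered totals and 3 against fibre genes, and left-out libraries gave 0 to 72. For genotype in sham muscle 0 became 1 with the nuclear coding total and 2 with recovered totals. Left-out libraries moved the members' median there from -0.05 to 0.29. For time in wild-type 6-OHDA muscle array weights gave 12 of 92 members. This is near the share of all 12820 genes, of which 826 were higher and 777 lower. Left-out libraries gave 0 to 1 for time in RE-RE 6-OHDA muscle and for the change of the 6-OHDA difference with genotype. The cause of these shifts was not tested. In wild-type muscle all 5 isoform ratios kept their sign and side of the threshold with log2(FPKM + 1) and without each library in turn. Scalings of whole libraries cannot move a ratio, and the RE-RE ratios were not run under alternatives.

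Centring on muscle fibre genes raised every wild-type difference by the same 0.65 log2 units, so 73 of the 88 negative members turned positive by construction. Among the members called as deposited and tracked singly, these were Atp5s (0.012), Cox5b (0.21), Cox7a1 (0.059), Cox7a2 (0.12), Ndufaf5 (0.092), Ndufs3 (0.23), Ndufs7 (0.083), Ndufs8 (0.18), Ndufv2 (0.12) and Uqcr11 (0.0075 log2 units).

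Same-numbered wild-type libraries did not deviate together (correlations -0.12 to 0.07), and RE-RE ones gave 0.10 and 0.16, each value shared by both pairs of a time, so the numbers were taken as names. With the replicate number as a block, 52 members were called in wild-type muscle, 32 at ZT0, 0 at ZT12 and 25 in RE-RE muscle, and both changes of an effect stayed at 0. Time and genotype comparisons could not be fitted with it, because the numbers are nested in them.

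Precision is limited by the 2 libraries per RE-RE group and the deposited FPKM scale; at this depth Cox6b2, with a median of 9 recovered reads, was too shallow to test.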
